A study of Mus musculus with 5 samples.

Results

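Interferon beta, interferon gamma and the chains of their receptors are 6 genes, 2 for ligands and 4 for receptor chains. They were chosen by symbol from a table of 41388 genes, and all 6 were found in it.

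Interferons are secreted cytokines that switch cells into an antiviral state. Interferon beta (Ifnb1) is a type I interferon and binds a receptor built from the chains Ifnar1 and Ifnar2. Interferon gamma (Ifng) is the type II interferon, made mainly by T cells and natural killer (NK) cells, and binds Ifngr1 and Ifngr2. In the brain, microglia carry both receptors and are known as one source of interferon beta.

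The table compares the RNA of microglia, the resident macrophages of the brain, sorted from C57Bl/6 mice aged 4 weeks. The protein A20, made from the gene Tnfaip3, edits ubiquitin chains and so damps signalling to NF-kB, and the groups differ in whether it was deleted. The A20 deletion group (3 libraries) has the genotype label eYFP-A20Dmg and the condition A20-deletion, without its alleles being spelled out. The control group (2 libraries) has the label eYFP-A20fl/wt Cx3cr1-CreERT2/+, that is, 1 floxed and 1 wild-type A20 allele with a tamoxifen-inducible Cre recombinase in 1 copy of the Cx3cr1 locus, and is described as partially deficient. Mice of both groups received 2 mg tamoxifen on postnatal days 14 and 16, and cells positive for the reporter eYFP were sorted in both. Control cells therefore carry a deletable allele too, and Cx3cr1 is also expressed by myeloid cells other than microglia. Whether each library stands for its own animal is not said in the labels. The p-values measure the spread between these libraries, and that spread may be technical.

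Libraries held 9726334 to 12883827 counts in the A20 deletion group, and 13946211 and 15275199 counts in the controls. All 12 microglia markers examined were detected in every library, and their summed level was 50688 to 55582 counts per 1e6 counts (CPM) in A20 deletion libraries and 59737 and 66648 CPM in controls. Of these markers Aif1 rose, Fcrls fell and the other 10 did not pass. Even so, 9 of the 12 were lower without overlap and 9 had an unadjusted edgeR p under 0.05. Over all genes tested, 18.5% were lower without overlap and 21% had an unadjusted edgeR p under 0.05. The calls were 3 higher and 7 lower with A20 deletion replicate 1 left out, 2 and 5 with DESeq2, and 0 with either control left out. Tnfaip3 itself stood at 294.3, 276.5 and 346.9 CPM in A20 deletion replicates 1 to 3, against 453.7 and 94.67 CPM in the controls (log2 fold change 0.16, edgeR adjusted p = 0.881). The library labelled control replicate 2 was the lowest of the 5 and control replicate 1 the highest, and the sign turned to -0.62 when control replicate 2 was left out. Counts per gene also include exons that a deletion may leave in place, so they do not check the labels, and the groups are those the labels give. Mitochondrially encoded genes took 0.847%, 4.63% and 3.56% of counts in A20 deletion replicates 1 to 3, against 1.19% and 0.852% in the controls. A20 deletion replicate 1 and control replicate 1 held 616 and 780 counts of Xist, and the other libraries held 0 and instead had counts of Y-linked genes.

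The 2 ligands differed in detection. Ifnb1 (ENSMUSG00000048806, GRCm38 chr4:88522025-88522774, minus strand) was counted in every A20 deletion library and in neither control. Ifng (ENSMUSG00000055170, chr10:118441046-118445892, plus strand) had 0 counts in all 5 libraries. Among the receptor chains, no difference between the groups passed the test.

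The Ifnb1 promoter is shown because its gene was the member that passed, and because transcription from it is known to need NF-kB and interferon regulatory factors (IRFs) bound side by side. The stretch comes from the RefSeq promoter table (GRCm38.p6), chr4:88522865-88522964, read on the minus strand. It runs from base -170 to base -71 before the annotated start at 88522794. Capitals mark letters that match the NF-kB motif, GGG and CC with any 5 bases between, or the IRF core AANNGAAA, searched on both strands.
Ifnb1 promoter: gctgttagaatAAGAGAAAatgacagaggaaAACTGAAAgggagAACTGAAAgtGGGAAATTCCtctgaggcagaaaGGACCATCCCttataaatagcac
One NF-kB match lies at -116 to -107, and the other, on the opposite strand, at -93 to -84. The IRF core matches start at -159, -139 and -126, and no match overlaps another. Within the 250 bases before the start, this NF-kB motif occurs in 45.8% of 32851 promoters of the table and AANNGAAA in 21.3%. The exact letters of the first NF-kB match, GGGAAATTCC, occur in 0.0974%. All 6 members had a promoter in the table. Ifngr1 held 1 NF-kB match and Ifngr2 held 4, none of them with the letters GGGAAATTCC, and Ifng held 1 match to AANNGAAA. The Ifngr2 matches at -76 to -67 and, on the opposite strand, at -75 to -66 overlap and so are not separate sites. The element TTCNNNGAA, bound by STAT dimers, occurred once each in the Ifng and Ifnar2 windows and in 7.02% of all promoters. A match is a match of letters and does not show that a factor is bound.

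Ifnb1 was counted 21, 48 and 31 times in A20 deletion replicates 1 to 3, against 0 times in control replicates 1 and 2. These counts equal 1.82 CPM (exact 95% Poisson interval 1.13 to 2.78), 3.77 CPM (2.78 to 4.99) and 3.15 CPM (2.14 to 4.47). These intervals and the floors given below cover counting error alone, because reads that carry no molecular identifier need not come from different molecules. A count of 0 allows a level of up to 0.213 CPM in control replicate 1 and 0.192 CPM in control replicate 2, taking 3 counts as the floor. The groups did not overlap, and replicate 1 was the lowest of the A20 deletion libraries. Ifnb1 rose to 2.91 ± 0.997 CPM (SD, n = 3) in A20 deletion microglia, against 0 CPM in controls (n = 2). Pooled over libraries and set against a floor of 3 counts over both controls together, it was at least 29-fold higher. The edgeR quasi-likelihood test gave an adjusted p of 0.0267 over the 12240 genes tested.

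**Figure D1:**
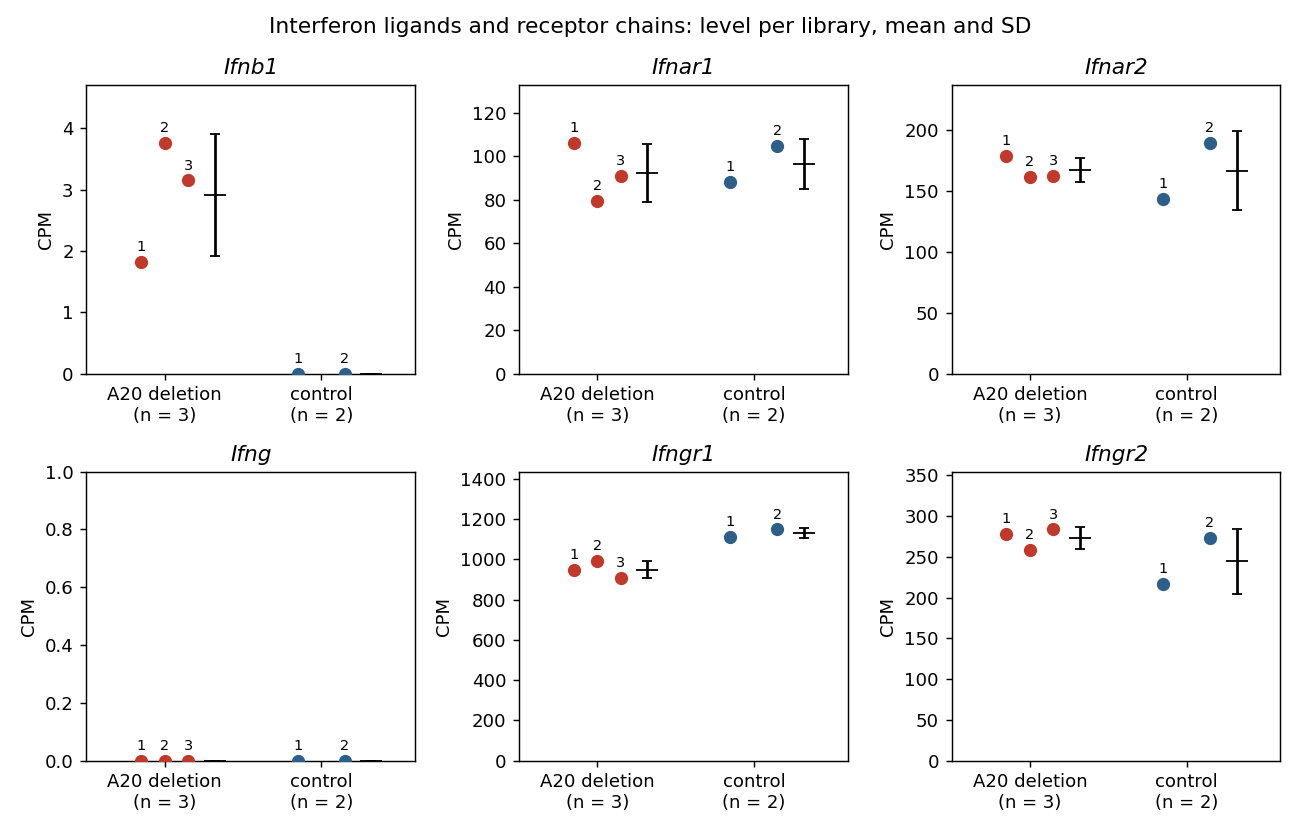
Each panel shows the level of 1 gene in CPM (vertical axis) in the A20 deletion libraries (red, n = 3) and control libraries (blue, n = 2). Points are libraries with their replicate number, and black marks are the mean with its SD. Ifnb1 lies between 1.82 and 3.77 CPM in A20 deletion libraries and at 0 in controls, Ifng is at 0 in all, and Ifngr1 is the receptor chain whose groups do not overlap.

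Of the 5 members tested, 1 passed the threshold of 0.05 for the adjusted p, beside 2.59% of all genes tested (2.08% higher and 0.507% lower). Ifnb1 met the filter on low counts through its A20 deletion libraries alone, so its direction follows from having been tested. The call rested on single libraries. With edgeR the adjusted p was 0.145 when control replicate 1 was left out and 0.211 when control replicate 2 was. It was 0.0641 when A20 deletion replicate 2 was left out and 0.0795 when replicate 3 was. It was 0.0568 with limma-voom. With the mitochondrial share as a term in the edgeR fit, the log2 fold change was 7.60 (adjusted p = 0.0208). Between libraries with Xist counts (1 against 1) the log2 CPM of Ifnb1 was 3.65 higher in A20 deletion, and between libraries with Y-linked counts (2 against 1) it was 4.52 higher.

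Few genes shared that pattern. In all, 256 genes had 0 counts in both controls and at least 1 count in every A20 deletion library, 21 of them passed the filter and 5 were called. By summed counts Ifnb1 ranked number 6 among the 23827 genes with 0 control counts, of which 20689 had 0 counts in all 5 libraries. The genes nearest to Ifnb1 in pattern, by the root-mean-square difference of centred log2 CPM over the 5 libraries, were the chemokine Cxcl11 (0.228), the signalling adaptor Traf1 (0.393) and the immunoglobulin heavy chain gene Ighg2b (0.446). The median over all genes was 2.10. For genes this low, the count added before taking logs sets part of that likeness.

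The other interferon genes examined were at or near 0. Of 18 further ligand genes in the table, which span the interferon alpha family, Ifnab, Ifne, Ifnk and the lambda interferons, 17 had 0 counts in all 5 libraries. Ifna2, a type I interferon, had 1 count in A20 deletion replicate 1. The interferon alpha genes are near-identical copies, and reads that map to several of them may have been left out by the counting, so their zeros are less certain than that of Ifng. As measured, Ifnb1 was the single interferon gene with more than 1 count among those examined. Interferon genes outside this list were not looked up.

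Ifng was at 0 counts in each of the 5 libraries. The floor of 3 counts allows 0.26, 0.235 and 0.305 CPM in A20 deletion replicates 1 to 3, and 0.213 and 0.192 CPM in control replicates 1 and 2. A level below these values was not detectable at this depth. A gene model of unsettled status, Gm49751, shares 25.95% of the exon bases of Ifng in the annotation used here and was not analysed here.

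Markers of the cells that make interferon gamma were low in both groups. The 19 T and NK cell markers summed to 11.8, 9.18 and 6.71 CPM in A20 deletion replicates 1 to 3 and to 3.41 and 7.11 CPM in the controls. Of these genes, 3 could be tested and 0 passed edgeR's threshold (3 had an unadjusted p under 0.05, and 1 passed with DESeq2, 0 with limma-voom and 2 as higher with A20 deletion replicate 1 left out). Cd3e, a chain of the T cell receptor complex, had 4, 5 and 4 counts in A20 deletion libraries, against 0 and 0 counts in controls. Cd3g had 9, 5 and 3 counts, Cd3d 3, 3 and 4 and Cd8b1 1, 7 and 5, again against 0 and 0. Klrb1c had 5, 1 and 0 counts in A20 deletion libraries, against 4 and 6 in controls. Eomes, a transcription factor of NK and effector T cells, had 0 counts in all libraries. The 3 tested genes did not overlap between the groups, 2 higher and 1 lower. Over all genes tested, 40.2% did not overlap (21.7% higher and 18.5% lower), and 21% had an unadjusted edgeR p under 0.05. Cd4, the co-receptor of helper T cells, stood at 3.98, 2.67 and 2.75 CPM in A20 deletion libraries, against 0.569 and 1.03 CPM in controls (log2 fold change 1.96, edgeR adjusted p = 0.131). Lck, a kinase of the T cell receptor, had 6, 10 and 15 counts in A20 deletion libraries, against 0 and 3 counts in controls (edgeR adjusted p = 0.213). Lck met the filter on low counts through its A20 deletion libraries alone, so its direction follows from having been tested. Klrd1, an NK receptor chain, stood at 1.04, 2.04 and 0.61 CPM in A20 deletion libraries, against 2.28 and 5.45 CPM in controls (edgeR adjusted p = 0.220). Klrd1 made up most of the summed marker level in each control, but not in the A20 deletion libraries. The part of these cells in the results for the 6 genes was not tested.

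Cytokines that drive interferon gamma production were detected in these cells. The list of 14 genes held such cytokines, their receptors and the transcription factors Tbx21 and Stat4, which were not tested. Of the 14, 9 were tested, 2 rose and 0 fell, with a median log2 fold change of 1.37 (0.05 over all genes tested). Over all genes tested, 2.08% were called higher and 21% had an unadjusted edgeR p under 0.05. Il12b, the p40 subunit of interleukin-12 and interleukin-23, had 226, 69 and 106 counts in A20 deletion libraries, against 3 and 1 counts in controls (log2 fold change 6.36, SE 0.83, edgeR adjusted p = 0.0148). Its partner Il12a had 0 counts in all A20 deletion libraries, and 1 control library held a level of 0.0711 CPM. The receptor chain Il12rb2 rose to 10.9 ± 1.86 CPM in A20 deletion, against 3.43 ± 0.322 CPM in controls (log2 fold change 1.67, SE 0.28, edgeR adjusted p = 0.0306). The other receptor chain, Il12rb1, had 13, 10 and 9 counts in A20 deletion libraries and 0 and 0 in controls, at least 9.27-fold higher on pooled counts, with an edgeR adjusted p of 0.0776. That bound lies above the list's median of 1.37, as the fitted value does, so it is no check on the median. Il12b and Il12rb1 met the filter on low counts through their A20 deletion libraries alone, so their direction follows from having been tested. The median includes both, and both lie above it. The log2 fold changes of the other tested members ran from -1.08 (Il18rap) to 1.67 (Il12rb2). The receptor Il15ra stood at 7.96, 9.34 and 9.86 CPM in A20 deletion, against 3.91 and 3.08 CPM in controls (edgeR adjusted p = 0.0576). With either control left out, or with limma-voom, 0 of these genes passed (6 had an unadjusted p under 0.05 in the fit of all libraries). With A20 deletion replicate 1 left out 6 passed, with replicate 2 or 3 left out 1 did, and with DESeq2 5 did.

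Receptor chains were well detected, and their order was the same in every library. Levels of different genes are compared here per length, as CPM per kilobase of exon (RPKM). Ifngr1, the ligand-binding chain of the interferon gamma receptor, was the highest at 333 ± 15 RPKM in A20 deletion (SD, n = 3) and 397 ± 8.70 RPKM in controls (SD, n = 2). Ifngr2, its signalling partner, followed at 72.6 ± 3.55 and 65.0 ± 10.6 RPKM in A20 deletion and control. Ifnar2, the chain that binds type I interferon tightly, stood at 50.4 ± 2.95 RPKM in A20 deletion and 50.1 ± 9.80 RPKM in controls. Ifnar1 was the lowest, at 15.5 ± 2.26 RPKM in A20 deletion and 16.2 ± 1.95 RPKM in controls. Within a group, no 2 neighbours in this order overlapped between libraries. The ligand Ifnb1, at 2.42 to 5.02 RPKM in A20 deletion libraries, lay below every receptor chain.

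Ifngr1 (ENSMUSG00000020009, chr10:19591949-19610229, plus strand) had 948.4, 991.5 and 905.9 CPM in A20 deletion replicates 1 to 3, against 1113 and 1148 CPM in control replicates 1 and 2. All 3 A20 deletion libraries lay below both controls. The log2 fold change was -0.25 (95% interval -0.58 to 0.07, SE 0.14), and it did not pass (edgeR adjusted p = 0.325). The interval spans 0.67-fold to 1.05-fold. The sign was negative under all 18 alternatives, which the lack of overlap largely fixes, and within both sets of libraries split by Xist (-0.23 with Xist counts and -0.28 with Y-linked counts). Of the 5 members tested, 2 had groups that did not overlap (Ifnb1 and Ifngr1), beside 40.2% of all genes tested.

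Ifngr2 (ENSMUSG00000022965, chr16:91547072-91565623, plus strand) had 278.6, 258.4 and 283.7 CPM in A20 deletion libraries, against 216.7 and 273.1 CPM in controls. Control replicate 2 lay inside the A20 deletion range. The log2 fold change was 0.16 (95% interval -0.23 to 0.56, SE 0.17, edgeR adjusted p = 0.584).

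Ifnar1 (ENSMUSG00000022967, chr16:91485238-91507441, plus strand) had 106.2, 79.5 and 90.9 CPM in A20 deletion libraries, against 88.2 and 104.6 CPM in controls. Both controls lay inside the A20 deletion range, with a log2 fold change of -0.06 (95% interval -0.50 to 0.38, SE 0.19, edgeR adjusted p = 0.858). Its sign changed under 5 of 18 alternatives.

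Ifnar2 (ENSMUSG00000022971, chr16:91372783-91405589, plus strand) had 179.2, 161.6 and 162.8 CPM in A20 deletion libraries, against 143.8 and 189.9 CPM in controls. The A20 deletion values lay between the controls. The log2 fold change was 0.01 (95% interval -0.41 to 0.43, SE 0.18, edgeR adjusted p = 0.980), and its sign changed under 6 of 18 alternatives. Ifnar2 is known to give both a membrane and a soluble form by alternative splicing, which counts per gene do not separate. The annotated gene model Gm21970 shares 9.46% of the exon bases of Ifnar2 and 14.9% of those of Il10rb and has 0 counts, so reads in the shared exons may not have been assigned to either gene.

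**Figure D2:**
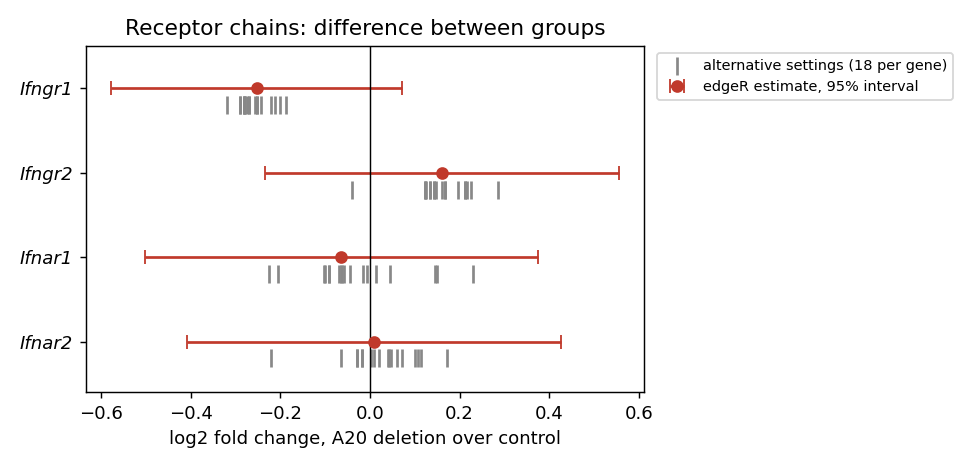
The log2 fold change of A20 deletion over control (horizontal axis) is shown for the 4 receptor chains, with the edgeR estimate and its 95% interval in red. Grey ticks are the same value under 18 alternative settings for each gene. All 4 intervals include 0, and for Ifngr1 every tick lies below 0.

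These intervals bound what the data allow. A change of 2-fold in either direction (a log2 fold change of 1) lies outside the interval of each of the 4 chains. The intervals rest on a spread shared across genes and on 5 libraries, and they do not show that the levels were equal. In bulk samples, fewer cells that express a gene and less RNA per cell cannot be told apart.

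Ratios between chains within a library do not depend on how libraries are scaled. Ifngr1 over Ifngr2, per length, was 4.50, 5.08 and 4.23 in A20 deletion replicates 1 to 3, against 6.80 and 5.56 in controls. The ratio was lower in all 3 A20 deletion libraries, by 0.42 on the log2 scale (difference -0.42), with a two-sided exact permutation p of 0.1, the smallest that 10 splits allow. Ifnar2 over Ifnar1 was 3.01, 3.63 and 3.20 in A20 deletion libraries, against 2.91 and 3.24 in controls, and the groups overlapped (exact permutation p = 0.5). Of 4 such ratios computed, the other 2, with Ifnar1 below Ifngr2 and Ifngr1, gave exact permutation p of 0.2 and 0.4. None of the 4 could pass, because 0.1 is the smallest p that this permutation test can give with 3 libraries against 2.

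**Figure D3:**
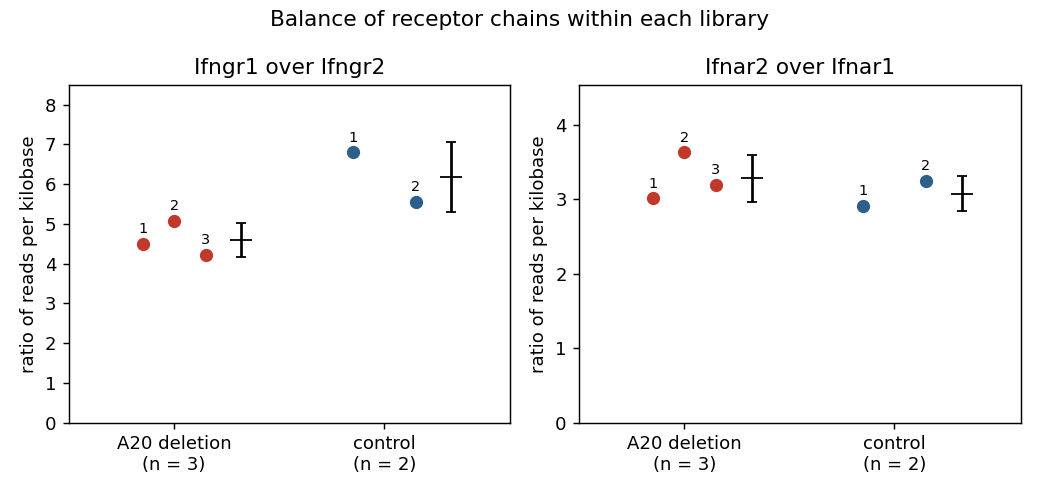
The ratio of reads per kilobase between the chains of each receptor (vertical axis) is plotted per library, in A20 deletion (red, n = 3) and control (blue, n = 2), with the mean and SD in black. Ifngr1 over Ifngr2 lies between 4.23 and 5.08 in A20 deletion and at 5.56 and 6.80 in controls, and Ifnar2 over Ifnar1 overlaps.

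By position, 3 of the 4 receptor genes sit side by side. Ifnar2, Il10rb, Ifnar1 and Ifngr2 lie in this order within 192.8 kb of chromosome 16, all on the plus strand. Il10rb, the shared chain of the interleukin-10 and interferon lambda receptors, begins 574 bases after Ifnar2 ends. It had 153.6, 186.2 and 196.1 CPM in A20 deletion, against 118.5 and 146.3 CPM in controls (log2 fold change 0.43, SE 0.19, edgeR adjusted p = 0.241). Of 11 genes in and around this cluster, all were tested and 0 passed with edgeR, DESeq2 or limma-voom (0 had an unadjusted edgeR p under 0.05, and 2 passed with A20 deletion replicate 1 left out), with a median log2 fold change of 0.16. Their log2 fold changes ran from -0.58 for Dnajc28 to 0.62 for Son.

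Ifngr1 lies elsewhere, 576.3 kb from Tnfaip3, the gene targeted in these mice, on chromosome 10. Of 10 genes listed around that stretch 6 were tested, and 0 passed with edgeR, DESeq2 or limma-voom, nor in edgeR fits with a library left out (0 had an unadjusted edgeR p under 0.05). Besides Ifngr1 and Tnfaip3, their log2 fold changes ran from -0.23 (Map3k5) to 0.26 (Pex7). The cytokine receptor genes of that stretch were barely detected. Il20ra had 0 counts in all libraries, and Il22ra2, a soluble decoy for interleukin-22, stayed at or below 0.513 CPM in every library.

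Of 7 related receptor genes 2 were tested, Il10rb and Il10ra, and neither passed. Ifnlr1, the specific chain of the interferon lambda receptor, had 16, 2 and 5 counts in A20 deletion replicates 1 to 3. Controls had 0 and 0 counts, so that Ifnlr1 was at least 6.67-fold higher on pooled counts. Most counts came from replicate 1, and the gene did not pass the filter, so it was not tested. Il10ra, the specific chain of the interleukin-10 receptor, was at 954.3, 798.6 and 718.7 CPM in A20 deletion libraries, against 912.2 and 804.9 CPM in controls (edgeR adjusted p = 0.861).

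By pattern over the 5 libraries, the tested genes nearest to Ifnar1 were Zbed3, Clcn6 and Bop1, those nearest to Ifnar2 were Mogs, Ddx28 and Narfl, those nearest to Ifngr1 were Uspl1, Rnf4 and Casp8, and those nearest to Ifngr2 were Gyg, Snx20 and Adat2. Their root-mean-square differences in log2 CPM lay between 0.0209 (Zbed3) and 0.0443 (Narfl), against medians of 0.329 to 0.348 over all genes.

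Below the receptors, Jak1 and Tyk2 serve the type I receptor and Jak1 and Jak2 the interferon gamma receptor. Stat2 and Irf9 are parts of the complex ISGF3, which type I interferon activates. Stat2 had 117.2, 51.2 and 68.4 CPM in A20 deletion, against 32.4 and 28.2 CPM in controls, and did not pass (adjusted p = 0.103 by edgeR). Irf9 had 156.5, 134.6 and 135.5 CPM in A20 deletion, against 96.2 and 102.2 CPM in controls (edgeR adjusted p = 0.151). For both, all 3 A20 deletion libraries lay above both controls, as they did for 21.7% of all genes tested. Jak1, Jak2, Tyk2 and Stat3 overlapped between the groups, with log2 fold changes from -0.53 (Jak1) to 0.16 (Tyk2). None of these 6 genes passed with edgeR in the fit of all libraries. An unadjusted edgeR p under 0.05 was found for 2 of them, Stat2 and Irf9, beside 21% of all genes tested.

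Among 10 negative regulators of these receptors 1 rose and 0 fell (median log2 fold change 0.09), beside 2.08% of all genes called higher. Usp18, which displaces Jak1 from Ifnar2 and is itself induced by interferon, had 147.8, 67.6 and 73.2 CPM in A20 deletion, against 10.0 and 11.4 CPM in controls (log2 fold change 3.17, SE 0.40, edgeR adjusted p = 0.0134). Socs1, an inhibitor of the Janus kinases, had 4.42, 4.87 and 3.76 CPM in A20 deletion, against 2.77 and 2.63 CPM in controls (edgeR adjusted p = 0.319). The phosphatase Ptpn6 stood at 386.8, 414.9 and 386.4 CPM in A20 deletion, against 324.3 and 298.6 CPM in controls (edgeR adjusted p = 0.238). Btrc and Fbxw11, ubiquitin ligase subunits known to mark Ifnar1 for removal, did not pass either, at log2 fold changes of 0.09 for Btrc and -0.58 for Fbxw11. The phosphatase Ptpn1 stood at 329.7, 251.7 and 239.6 CPM in A20 deletion, against 371.1 and 361.6 CPM in controls (edgeR adjusted p = 0.249). Of the 10, 4 were higher without overlap and 2, Fbxw11 and Ptpn1, were lower without overlap. Over all genes tested these shares were 21.7% and 18.5%. With A20 deletion replicate 1 left out, 2 of the 10 passed as lower, Fbxw11 and Ptpn1. With either control left out Usp18 did not pass.

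Of 22 genes known to act in switching on Ifnb1, 2 rose and 0 fell (median log2 fold change -0.04). Over all genes tested, 2.08% were called higher and 0.507% lower. Irf7, an interferon-induced factor that binds the IRF elements of type I interferon promoters, had 259.8, 117.6 and 179.7 CPM in A20 deletion, against 13.15 and 11.99 CPM in controls (log2 fold change 3.89, SE 0.37, edgeR adjusted p = 0.00655). Zbp1, a sensor of Z-form nucleic acid, had 63.5, 30.1 and 40.3 CPM in A20 deletion, against 3.27 and 2.31 CPM in controls (log2 fold change 4.00, SE 0.41, edgeR adjusted p = 0.00683). Both are also known as interferon-stimulated genes, and Irf7 is counted again among the type I targets given further on. Ifih1, a sensor of double-stranded RNA, came next by p at 142.7, 64.8 and 69.5 CPM in A20 deletion, against 41.9 and 37.2 CPM in controls, and did not pass (edgeR adjusted p = 0.142). The sensors Cgas and Sting1, the adaptors Mavs, Ticam1 and Myd88, the kinase Tbk1 and the factors Irf3, Rela and Atf2 had log2 fold changes between -0.30 (Tbk1) and 0.28 (Cgas), none of which passed. Other members lay outside that range without passing. The kinase Ikbke had 20, 11 and 12 counts in A20 deletion, against 0 and 4 counts in controls (log2 fold change 3.17, edgeR adjusted p = 0.187). Ikbke met the filter on low counts through its A20 deletion libraries alone. The log2 fold change was 0.98 for Ddx58, 0.45 for Irf1, 0.44 for Tlr3, -0.41 for Tlr4, -0.49 for Tlr9 and -0.63 for Tlr7. With A20 deletion replicate 1 left out, 3 members passed as higher and 4 as lower. With either control left out 0 passed, and with both A20 deletion replicates 2 and 3 left out 4 were higher.

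**Figure D4:**
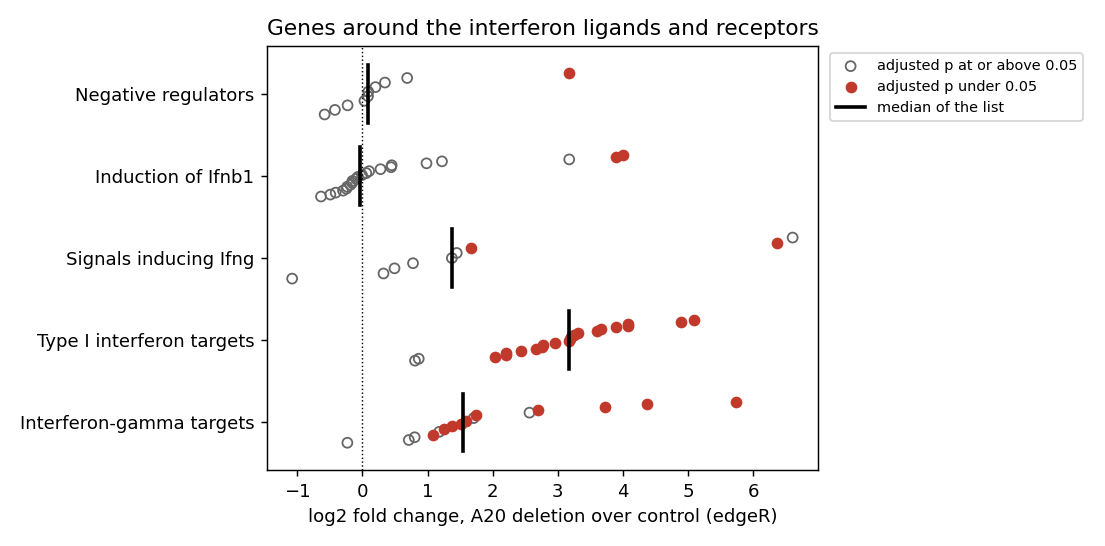
Each point is the edgeR log2 fold change of A20 deletion over control (horizontal axis) for 1 tested gene, grouped by list (vertical axis). Filled points have an adjusted p under 0.05 and the black bar is the list's median. The 5 lists are negative regulators of the receptors (median 0.09), genes acting in Ifnb1 induction (-0.04), signals inducing Ifng (1.37), type I interferon targets (3.17) and interferon gamma targets (1.55).

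Genes that type I interferon is known to induce were the list with the most calls. Of 22 tested, 20 rose and 0 fell, and their median log2 fold change was 3.17, beside 2.08% of all genes called higher and a median of 0.05. This list was chosen with earlier results of these data known. Rsad2, an antiviral enzyme, rose to 73.2 ± 7.86 CPM in A20 deletion, against 5.78 ± 1.44 CPM in controls. Ifi27l2a stood at 96.2 ± 4.49 CPM in A20 deletion and 10.6 ± 0.680 CPM in controls, and Ifit3 at 127 ± 19.0 CPM in A20 deletion and 10.5 ± 0.613 CPM in controls. Each of these 3 genes had an edgeR adjusted p of 0.00223. With 1 library left out, the members called higher numbered 3 (control replicate 1 out), 0 (control replicate 2 out) and 15 to 21 (an A20 deletion replicate out).

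Ifnb1 and these genes ranked the A20 deletion libraries differently. The median target gene lay 3.54, 2.62 and 2.87 above the control mean in log2 CPM in A20 deletion replicates 1 to 3, against -0.04 and 0.04 in the control libraries. Replicate 1 was thus the highest of the 3 for the targets. For Ifnb1 the same libraries had 1.82, 3.77 and 3.15 CPM, so that replicate 1 was the lowest, and its Poisson interval overlapped those of replicates 2 and 3. The mitochondrial shares given above, 0.847%, 4.63% and 3.56%, ran in the same order as Ifnb1. Their part in this was not tested.

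**Figure D5:**
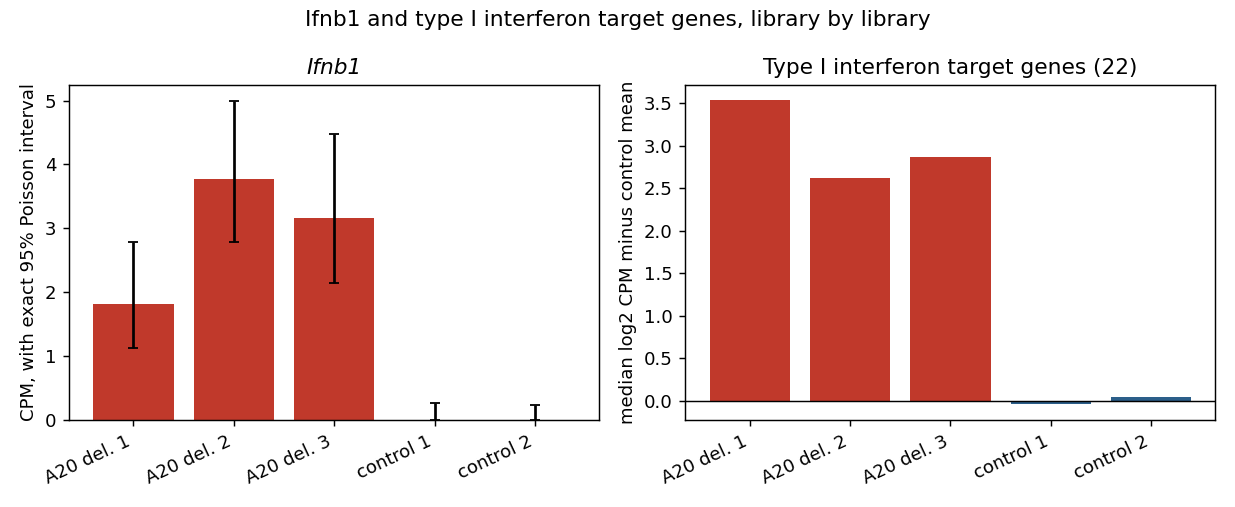
Bars in the left panel show the Ifnb1 level in CPM per library with its exact 95% Poisson interval, and bars in the right panel the median log2 CPM of 22 type I interferon target genes minus the control mean. A20 deletion libraries are red and controls blue. Replicate 1 of A20 deletion is the lowest of its group on the left (1.82 CPM) and the highest on the right (3.54).

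Genes known as targets of interferon gamma were higher as well, many of which type I interferon also induces. Of 16 tested, 10 rose and 0 fell, with a median log2 fold change of 1.55. Over all genes tested, 2.08% were called higher and 0.507% lower, with a median of 0.05. Psmb9 and Tap1, which make and transport peptides for class I presentation, rose to 101 ± 4.14 and 314 ± 38.6 CPM in A20 deletion, against 39.3 ± 1.85 and 110 ± 2.53 CPM in controls (edgeR adjusted p = 0.0102 and 0.0104). H2-Ab1, a chain of class II molecules, rose to 56.0 ± 9.0 CPM in A20 deletion, against 16.8 ± 0.752 CPM in controls (edgeR adjusted p = 0.0104). Ciita, the class II regulator that interferon gamma induces, had 1.39, 0.235 and 0 CPM in A20 deletion libraries, against 0.142 and 0.192 CPM in controls. Nos2 and Ido1, further known targets, were at or below 0.433 CPM in every library. Ciita, Nos2 and Ido1 did not pass the filter and were not tested, and they do not stand for the list. Iigp1 and Gbp2 rose, at log2 fold changes of 3.72 and 2.70 (edgeR adjusted p = 0.0126 and 0.0130). Cxcl9 also rose (5.74, edgeR adjusted p = 0.0148), but met the filter on low counts through its A20 deletion libraries alone. Irgm2 was at -0.23 and did not pass. With control replicate 1 left out 1 member of the list was called, with control replicate 2 left out 0 were, and with A20 deletion replicate 1 left out 15 were.

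Other cells that could bring interferon transcripts were examined by their markers. Of 10 markers of B cells and plasmacytoid dendritic cells, 3 were tested and 1 rose, the muscle-type cytochrome oxidase subunit Cox6a2 (9.96, 10.8 and 14.5 CPM in A20 deletion, against 2.28 and 1.99 CPM in controls, edgeR adjusted p = 0.0130). Their sum was 198, 367 and 320 CPM in A20 deletion libraries and 241 and 210 CPM in controls, most of it from Tcf4. Ccr9 and Klk1, found in plasmacytoid cells, stayed at or below 0.0785 CPM. Of 10 monocyte markers 7 were tested, 2 rose and 0 fell, and their sum was 132, 85.2 and 83.7 CPM in A20 deletion libraries, against 27.4 and 22.4 CPM in controls. In A20 deletion libraries most of the sum came from the 2 called genes, and in controls the largest part was Ccr2. Ms4a4c, a membrane protein gene, had 53.5, 31.1 and 37.1 CPM in A20 deletion, against 4.55 and 3.46 CPM in controls, and Plac8 had 30.6, 16.6 and 27.1 CPM in A20 deletion, against 2.98 and 2.63 CPM in controls (edgeR adjusted p = 0.00655 and 0.00791). Of the other monocyte markers tested, 3 were higher in every A20 deletion library than in both controls without passing. Over all genes tested, 21.7% were higher without overlap and 2.08% were called higher. Ly6c2 had 12, 7 and 12 counts in A20 deletion, against 1 and 0 counts in controls (edgeR adjusted p = 0.122). It met the filter on low counts through its A20 deletion libraries alone, so its direction follows from having been tested. The adhesion receptor Cd44 had 12.6, 7.22 and 7.22 CPM in A20 deletion, against 3.77 and 3.14 CPM in controls (edgeR adjusted p = 0.109), and the matrix protein gene Fn1 had 23.3, 23.2 and 5.59 CPM in A20 deletion, against 3.06 and 4.87 CPM in controls (edgeR adjusted p = 0.137). With DESeq2 4 monocyte markers were called higher, and with A20 deletion replicate 1 left out 4 were higher and 1 lower. With either control left out, 0 monocyte markers and 0 of the B and plasmacytoid markers passed. Ccr2, a defining chemokine receptor of monocytes, stood at 8.14, 5.18 and 5.49 CPM in A20 deletion, against 11.5 and 8.20 CPM in controls (edgeR adjusted p = 0.271). Neutrophil markers summed to 11.4, 1.49 and 3.66 CPM in A20 deletion and 22.5 and 0.449 CPM in controls, and 0 of 5 tested passed with edgeR, DESeq2 or limma-voom (0 at an unadjusted edgeR p under 0.05). The highest was S100a9, at or below 6.61 CPM in every library. Markers of neurons, glia and endothelium summed to 191, 365 and 350 CPM in A20 deletion and 174 and 229 CPM in controls. With edgeR 0 of 11 tested passed, and 7 had an unadjusted p under 0.05, beside 21% of all genes tested. With DESeq2 3 were higher and 1 lower. The highest marker of this list was Mbp, a myelin protein gene, at 80.9, 138.0 and 143.8 CPM in A20 deletion, against 66.0 and 82.4 CPM in controls. Their part in the results for Ifnb1 was not tested.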

How the data were processed

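RNA of eYFP-positive brain cells was sequenced in 3 A20 deletion and 2 control libraries, each from 10 ng of RNA with a minimum integrity number of 7. The deposited values are raw counts of reads per Ensembl gene. Per the submitters' processing notes, the tools were STAR 2.4.0j, featureCounts and DESeq2 1.22.1, on GRCm38. The strand setting, the handling of multi-mapped reads and the annotation release were not given in the sources used here. Of 41388 genes, 40340 matched a GENCODE M21 symbol.

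Low genes were removed with filterByExpr at a minimum count of 10 and total of 15, and the rest were scaled by TMM and tested with edgeR 4.0.16's quasi-likelihood test in R 4.3.3, two-sided, with Benjamini-Hochberg adjustment over 12240 genes and a threshold of 0.05. CPM uses the TMM-scaled total, log2 CPM a prior count of 2, and RPKM the union exon length. The SE, the fold change over the square root of F, and its 95% interval are approximate. A count of 3 equals 0.192 to 0.305 CPM. Alternatives used DESeq2 1.42.0 and limma 3.58.1. Members and lists were chosen with earlier results of these data known. Genes named besides the 6 members are whole short lists, up to 3 per longer list with the smallest p, and the nearest patterns. Other genes were chosen after their values were seen. Results for some genes are not reported here.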

Additional observations from a re-analysis of the deposited data

Results flagged for a closer look

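Ifnar1 and Ifnar2 differed between the groups in opposite directions in libraries with Xist counts and in libraries with Y-linked counts. For Ifnar1 the log2 CPM of A20 deletion minus control was 0.268 with Xist counts (1 library against 1) and -0.297 with Y-linked counts (2 against 1). For Ifnar2 these differences were 0.317 and -0.226. A test of the difference itself, an interaction term in edgeR added after the data were seen, gave adjusted p = 0.206 for Ifnar1 and adjusted p = 0.169 for Ifnar2 over all genes (unadjusted 0.0274 and 0.019), so neither passed. That fit takes its spread between replicates from A20 deletion replicates 2 and 3 alone.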

How the results depend on the processing

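The log2 fold change of Ifnb1 was positive in the 17 alternatives that could test it and that of Ifngr1 negative in all 18, which says nothing of stability, since 0 control counts fix the first sign and groups without overlap largely fix the second. At least 5 CPM in 2 libraries left Ifnb1 untested. Ifnb1 did not pass with limma-voom (log2 fold change 6.397, adjusted p = 0.0568) or without both A20 deletion replicates 2 and 3 (7.66, adjusted p = 0.106), and leaving out 1 library gave 7.9998 to 8.49. Ifnar1 was positive with a term for the mitochondrial share (0.15), for the long-gene share (0.23) and without both A20 deletion replicates (0.15), and ran from -0.23 to 0.0441 when 1 library was left out. Ifnar2 was negative with DESeq2's size factors (-0.0181), library size alone (-0.0285), no filter (-0.0280) and the DESeq2 test (-0.0182), and ran from -0.22 to 0.17 when 1 library was left out. Ifngr2 ran from -0.0405 to 0.29 and Tnfaip3 from -0.62 to 1.65 in those fits. None of the 4 receptor chains passed under any alternative (lowest adjusted p = 0.114, Ifngr1 without A20 deletion replicate 1). Causes were not tested.

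Genes higher and lower numbered 255 and 62. They were 1048 and 653 with no filter, 744 and 366 with DESeq2, and 563 and 261 with the Xist term. With limma-voom 166 were higher. Leaving out 1 library gave 0 to 1902 higher and 0 to 2021 lower, namely 0 by edgeR with control replicate 2 out (1323 had an unadjusted p below 0.05), 16 and 2 with control replicate 1 out, and 1902 and 2021, 158 and 20, and 85 and 5 with A20 deletion replicate 1, 2 or 3 out. The replicate numbers are shared by 2 pairs (correlations of deviations 0.26 and 0.167) and the labels do not say that they pair. With the number as a block, 228 genes were higher and 32 lower, and Ifnb1 had an adjusted p of 0.0487. Depth limits Ifng and the other ligands, whose levels below 0.192 to 0.305 CPM, depending on the library, were not detectable.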
